A study of Mus musculus with 6 samples.

Results

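The genes described here are 10 genes of the p53 pathway, among the 43346 genes of the count table: the BH3-only genes Bbc3 (which encodes Puma) and Pmaip1 (Noxa), their effector Bax, the arrest genes Cdkn1a (p21) and Ccng1, Trp53 itself with its inhibitor Mdm2, and the p53 targets Trp53inp1, Phlda3 and Sesn1. They were found by matching the Ensembl identifiers of the table to these symbols, and all 10 were matched. They had been chosen with the difference between 10HDA and vehicle in these same libraries already known, so their values in that comparison are a description and carry no test. The question was whether Bbc3 rose with or without the other p53 targets.

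The libraries came from cells of the fetal mouse cortex, taken at gestational day 15.5 and grown in primary culture, and 10HDA is a fatty acid of royal jelly. There were 3 vehicle libraries (DMSO, written DSMO in the labels) and 3 libraries of cells given 1 mM 10HDA, with 1 library of each treatment from each of cultures 1, 3 and 4. Every library carries the labels Cyp19-EGFP for strain, a transgenic line with an EGFP reporter for the aromatase gene, and SRY+ for genotype, whereas C57BL/6 embryos are named in the methods of this experiment. No other agent or allele is named for either treatment. How many embryos went into a culture is not given in the sources used here, so p-values measure the spread between these libraries only.

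p53 is a transcription factor that is held low by Mdm2, an E3 ubiquitin ligase and itself a p53 target. Damage and other stresses release it, and it then raises genes that stop the cell cycle, repair DNA or start apoptosis through the mitochondria. In neurons, Puma is a main trigger of that apoptosis, and its gene is also known to be raised without p53, by FOXO3 and by CHOP (encoded by Ddit3), a factor of the ATF4 stress response.

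The libraries held 9144736 to 13367194 counts on genes, so that 3 counts correspond to 0.216 to 0.329 CPM (counts relative to the size of each library, corrected for composition by TMM scaling). These limits cover counting error only. Both libraries of culture 1 went against their SRY+ label, with summed levels of 4 Y-linked genes of 8.88 and 9.09 CPM against 95.8 to 133 CPM in the other 4 libraries, so results are also given without culture 1. The neuronal genes Tubb3 and Map2 were abundant (1353 to 1820 and 1472 to 2150 CPM), as the tissue label would have it, and microglial genes were nearly absent. A gene was tested where it had at least 10 CPM in at least 3 libraries, which 10520 genes and 8 of the 10 members did. Pmaip1 and Phlda3 fell below that level and were fitted with a limit of 1 CPM.

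RefSeq start-site windows (GRCm38.p6, 250 bases before to 50 after each start) were on hand for 8 of the 10 members, and were not for Pmaip1 and Trp53inp1. They were searched on both strands for the p53 decamer, for the FOXO element GTAAACA and for the ATF4 composite element TGATGNAAN. The p53 decamer stood in the windows of 6 of the 8 genes (Cdkn1a, Mdm2, Ccng1, Bax, Trp53 and Sesn1), against 9.55% of all 27025 genes with windows. It stood in none of the 3 windows of Bbc3 and not in that of Phlda3. The FOXO element stood in windows of Bbc3, Mdm2 and Sesn1 (4.05% of all genes), and the ATF4 composite element in none of the 8 (4.5% of all genes). Of the 16 genes of the ATF4 and CHOP stress response described further on, 6 held the ATF4 element (Asns, Atf3, Chac1, Nupr1, Slc7a11 and Trib3). Of these, Slc7a11 lay lower with 10HDA (log2 fold change -0.79). Atf5, Ddit3 and Sesn2, which rose, did not hold it, and Atf5 held the p53 decamer. A match is a description of these letters only, and no match says only that the letters are not in this window. The stretches below are shown because they set the start of Bbc3 beside those of p53 targets that moved less and of ATF4 targets that moved as much or more. They were picked by those changes, so they do not show whether a motif goes with a rise. Each is written 5′ to 3′ on the strand of its gene, with the match in capitals (the p53 decamer in the first 3, the FOXO element in Bbc3 and the ATF4 element in the last pair, these 3 matches lying on the opposite strand), and no match overlaps a match of another motif.
Cdkn1a, chr17:29090908-29090957, plus strand: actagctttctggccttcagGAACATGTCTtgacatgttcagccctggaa
Mdm2, chr10:117710915-117710964, minus strand: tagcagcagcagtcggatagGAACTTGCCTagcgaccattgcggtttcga
Ccng1, chr11:40755442-40755491, minus strand: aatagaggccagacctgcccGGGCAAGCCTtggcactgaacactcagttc
Bbc3, chr7:16310074-16310120, plus strand: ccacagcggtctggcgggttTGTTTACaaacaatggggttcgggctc
Chac1, chr2:119351028-119351076, plus strand: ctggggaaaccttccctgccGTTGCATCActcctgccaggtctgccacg
Trib3, chr2:152344019-152344067, minus strand: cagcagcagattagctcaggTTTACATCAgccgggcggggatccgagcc

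Bbc3 had the largest change of the 10 genes. Its protein Puma binds the antiapoptotic BCL2 proteins and so leaves Bax and Bak free to open the outer mitochondrial membrane. Bbc3 (chr7:16308393-16318205, plus strand, GENCODE M21 on GRCm38) was counted at 33.3, 32.1 and 25.7 CPM in the vehicle libraries of cultures 1, 3 and 4, and at 62.5, 51.0 and 54.1 CPM in the 10HDA libraries of the same cultures. The lowest 10HDA library lay well above the highest vehicle library, so the treatments did not overlap. The mean was 30.4 ± 4.06 CPM (SD, n = 3) with vehicle and 55.9 ± 5.94 CPM (SD, n = 3) with 10HDA, a fitted 1.84-fold difference (log2 fold change 0.88, SE 0.13). Within cultures 1, 3 and 4 the log2 difference was 0.91, 0.67 and 1.07. In bulk RNA, fewer cells of a type and less RNA per cell cannot be told apart, and the same holds for an increase.

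Among the 8 members tested, Bbc3 alone had an adjusted p under 0.1 in the edgeR comparison without a culture term, a threshold passed upward by 0.2% of all genes tested and in either direction by 0.627% (66 genes, 21 higher and 45 lower, or 21 and 24 when libraries were scaled by their totals alone). With culture as a block, Ccng1 and Trp53inp1 passed as well, making 3 of 8, where 8.98% of all genes passed and 3.91% passed upward. With the block and the 1 CPM limit, Pmaip1 and Phlda3 also passed, making 5 of 10, where 7.5% of genes passed and 3.92% passed upward. Since the members were chosen on this comparison, nothing is read from these counts. Without a culture term Bbc3 fell short of the threshold when the vehicle library of culture 3 or 4, the 10HDA library of culture 1, or both libraries of culture 1 or 3 were left out, at log2 fold changes of 0.80 to 0.99 over all 20 alternatives. Without the 10HDA library of culture 4, Trp53inp1 passed beside it, making 2 of 8. Without culture 1 the log2 fold change of Bbc3 was 0.88, and with the block it passed there too.

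**Figure D1:**
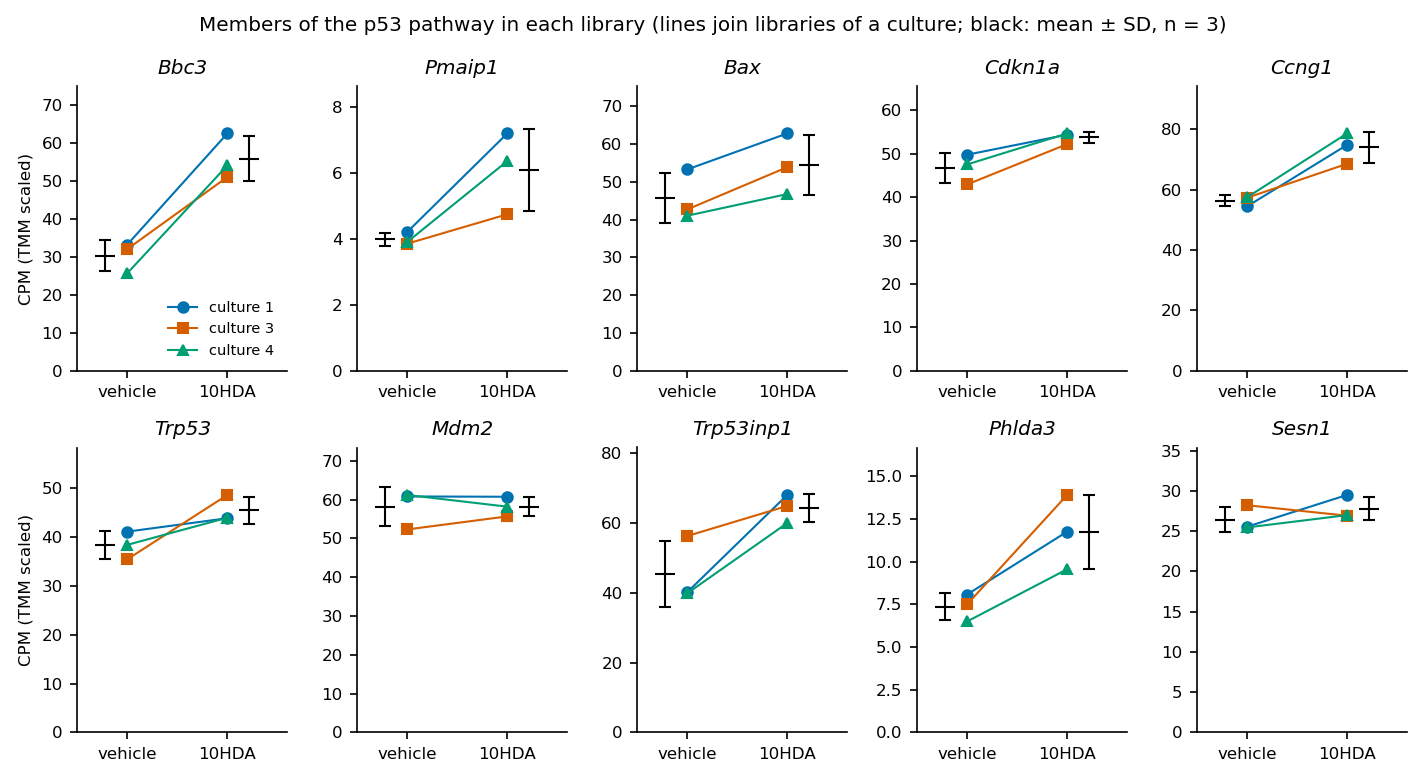
CPM after TMM scaling of the 10 members (vertical axes from 0, each with its own scale) in the vehicle and 10HDA libraries, with lines joining the libraries of a culture and black bars for the mean ± SD (n = 3). The libraries of the treatments do not overlap for Bbc3, Pmaip1, Cdkn1a, Ccng1, Trp53, Trp53inp1 and Phlda3, and overlap for Bax, Mdm2 and Sesn1.

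The remaining apoptosis genes of the group lay higher with 10HDA by smaller amounts. Pmaip1 (chr18:66458533-66465565, plus strand) encodes Noxa, which acts mainly on Mcl1, and was the least abundant member, with 47, 51 and 47 counts in the vehicle libraries of cultures 1, 3 and 4 (4.21, 3.86 and 3.91 CPM) and 84, 66 and 58 counts in the 10HDA libraries (7.20, 4.75 and 6.36 CPM). There was no overlap between the treatments, but the 10HDA library of culture 3 lay close to the vehicle libraries. Its log2 fold change was 0.62 (SE 0.21). Bax (chr7:45461697-45466898, minus strand), the pore-forming effector that Puma helps to activate, was counted at 53.3, 42.7 and 41.0 CPM with vehicle and at 62.8, 53.9 and 46.7 CPM with 10HDA. The 10HDA library was the higher one in each culture, yet the treatments overlapped because culture 1 was high in both. The log2 fold change of Bax was 0.26 (SE 0.14). Of its exon bases in GENCODE M21, 192 (12.2%) are shared with Gm45808 on the same strand, a gene that has no row in the table.

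Of the arrest genes, Ccng1 had the larger difference. Cdkn1a (chr17:29090976-29100727, plus strand) encodes p21, an inhibitor of cyclin-dependent kinases and the classic readout of p53 activity. It was counted at 49.8, 42.9 and 47.5 CPM with vehicle and at 54.4, 52.2 and 54.7 CPM with 10HDA in cultures 1, 3 and 4. The treatments did not overlap, although the gap between the highest vehicle and the lowest 10HDA library was small, and the fitted difference was 1.15-fold (log2 fold change 0.20, SE 0.10). On the opposite strand, the M21 gene AC167363.2 shares 273 (7.68%) of its exon bases, and the strand setting of the counting is not given in the sources used here. Ccng1 (chr11:40748552-40755311, minus strand), the gene of cyclin G1, which takes part in the feedback on p53, was counted at 54.4, 57.3 and 57.4 CPM with vehicle and at 74.8, 68.5 and 78.6 CPM with 10HDA. The vehicle libraries lay close together and the 10HDA libraries all lay above them, a 1.31-fold difference (log2 fold change 0.39, SE 0.10).

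Mdm2, the direct feedback target of p53, had nearly the same level under both treatments. Mdm2 (chr10:117688875-117710758, minus strand) was counted at 60.8, 52.3 and 61.2 CPM in the vehicle libraries of cultures 1, 3 and 4 and at 60.7, 55.7 and 58.2 CPM in the 10HDA libraries. The treatments overlapped fully, the mean was 58.1 ± 5.02 CPM with vehicle and 58.2 ± 2.53 CPM with 10HDA (SD, n = 3), and the log2 fold change was 0.0049 (SE 0.10). It lay between -0.045 and 0.082 over 20 alternatives and below 0 in 3 of them. Trp53 (chr11:69580359-69591873, plus strand), the gene of p53, was counted at 41.2, 35.5 and 38.4 CPM with vehicle and at 43.9, 48.7 and 44.0 CPM with 10HDA. The treatments did not overlap, and culture 3 had the largest step of the 3 cultures (log2 difference 0.46, against 0.093 and 0.19 in cultures 1 and 4). Its log2 fold change was 0.25 (SE 0.11). RNA counts measure neither p53 protein nor its activity.

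The last 3 targets differed among themselves. Trp53inp1 (chr4:11156431-11174379, plus strand), whose protein takes part in p53-dependent death and autophagy, was counted at 40.2, 56.3 and 39.9 CPM with vehicle and at 68.1, 64.9 and 60.0 CPM with 10HDA. Its vehicle level in culture 3 stood above those of cultures 1 and 4, and that culture had the smallest step (log2 difference 0.21, against 0.76 and 0.59), with a log2 fold change of 0.50 (SE 0.14) overall. Phlda3 (chr1:135766119-135769136, plus strand), a repressor of Akt, was counted at 8.07, 7.49 and 6.49 CPM with vehicle and at 11.7, 13.9 and 9.55 CPM with 10HDA. The treatments did not overlap, and the log2 fold change was 0.70 (SE 0.18), the second largest of the 10 genes. Sesn1 (chr10:41809935-41908424, plus strand), a stress-induced inhibitor of mTORC1, was counted at 25.6, 28.2 and 25.5 CPM with vehicle and at 29.5, 26.9 and 27.0 CPM with 10HDA. Its treatments overlapped, with a lower 10HDA than vehicle library in culture 3, and its log2 fold change was 0.076 (SE 0.12).

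Put together, all 8 tested members had a log2 fold change above 0, from 0.0049 to 0.88, with a median of 0.26, where 47.9% of all genes tested lay above 0 and their median was -0.0095. In 5 of the 8 the 10HDA libraries all lay above the vehicle libraries, against 5.84% of all genes, and 6 of the 8 were higher with 10HDA in all 3 cultures, against 18.2%. Leaving Bbc3 aside, the median of the other 7 was 0.25 and 0 of them passed the threshold in edgeR without a culture term, where 3 had an unadjusted p under 0.05, against 10.1% of all genes. DESeq2 called Ccng1 and Trp53inp1 among these 7 (0.551% of all genes rose by DESeq2), and limma-voom called 0. Without culture 1, edgeR called 0 of the 8 members without a culture term (4 at an unadjusted p under 0.05, against 6.5% of all genes) and 4 of 8 with it, namely Bbc3, Ccng1, Trp53 and Trp53inp1, where 3.52% of all genes rose.

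**Figure D2:**
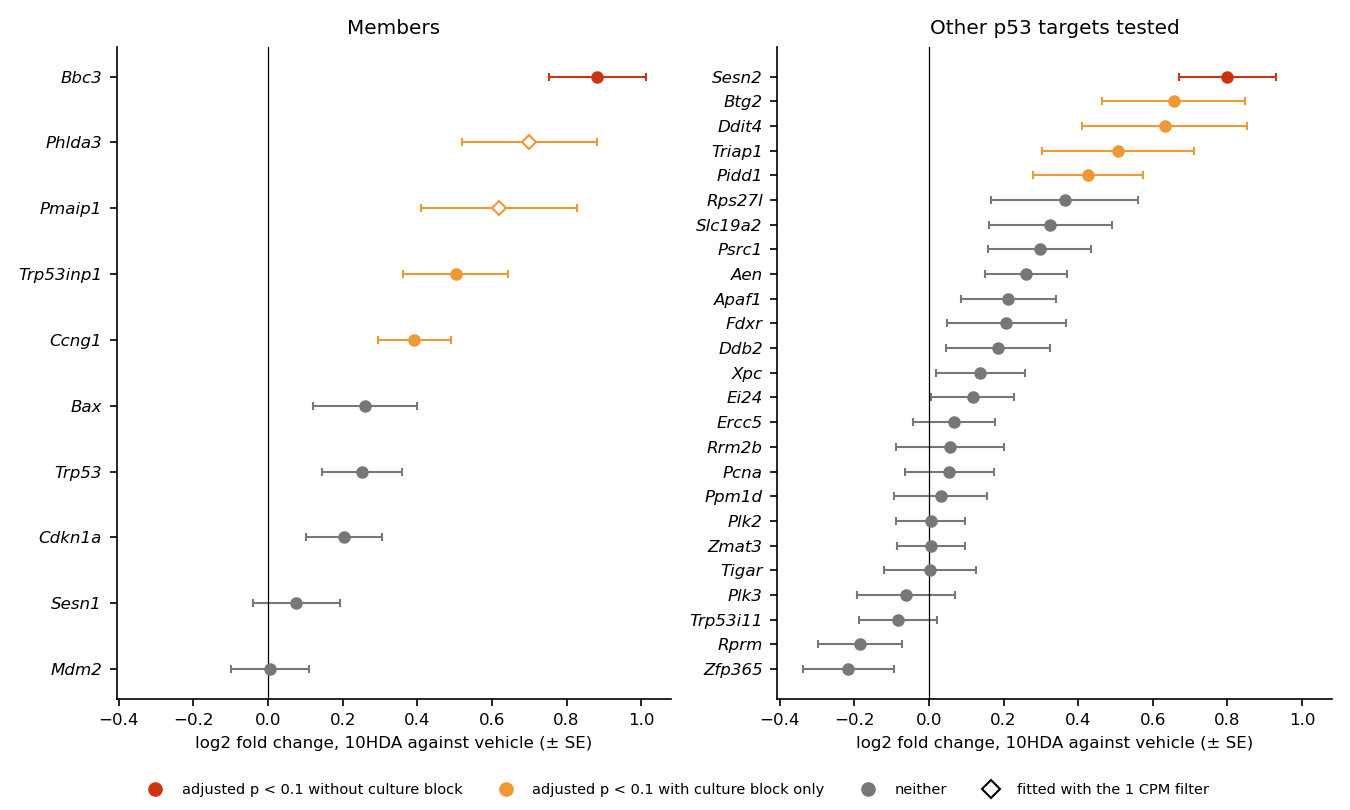
log2 fold change, 10HDA against vehicle (horizontal axis, with bars for ± SE), of the 10 members and of the 25 tested genes of the list of other p53 targets. Red marks genes with an adjusted p under 0.1 without a culture term, orange those with one under 0.1 with culture as a block only, and diamonds the members fitted with the 1 CPM limit; Bbc3 (0.88) and Sesn2 (0.80) are the red points, and Mdm2 lies at 0.0049.

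Bbc3 also changed relative to most of the other members inside each library, a comparison that no scaling between libraries can touch. There were 0.668, 0.748 and 0.541 counts of Bbc3 per count of Cdkn1a in the vehicle libraries of cultures 1, 3 and 4, and 1.15, 0.978 and 0.990 in the 10HDA libraries. Per count of Mdm2 there were 0.547, 0.614 and 0.420 with vehicle and 1.03, 0.917 and 0.930 with 10HDA. The 10HDA libraries all lay above the vehicle libraries for both ratios, and the same was true of the ratios to Ccng1, Pmaip1, Bax, Trp53 and Sesn1. The ratios to Trp53inp1 and Phlda3 overlapped between treatments. These ratios rest on the same contrast by which the genes were chosen, and they show unequal change, not which gene of a pair moved.

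Levels of different genes can be compared only per length (RPKM, CPM per kilobase of the gene length in the deposited table). In the vehicle libraries the order was Bax (52.5 ± 7.64), Cdkn1a (21.02 ± 1.57), Ccng1 (16.1 ± 0.482), Bbc3 (15.1 ± 2.02), Mdm2 (11.5 ± 0.990), Trp53 (9.48 ± 0.700), Sesn1 (7.94 ± 0.472), Trp53inp1 (7.02 ± 1.45), Phlda3 (4.72 ± 0.512) and Pmaip1 (1.51 ± 0.0724), each as mean ± SD in RPKM over 3 libraries. The ranges of Ccng1 and Bbc3 overlapped, as did those of Sesn1 and Trp53inp1, so the order within those pairs is not set. With 10HDA, Bbc3 stood in the second place at 27.8 ± 2.96 RPKM, its range above that of Cdkn1a (24.2 ± 0.604 RPKM). The order depends on the length used. With the exon lengths of GENCODE M21, where Bax has 1576 bases instead of 869 and Cdkn1a 3553 instead of 2223, vehicle Cdkn1a (13.2 RPKM) stood below Ccng1 (16.1 RPKM) and Bbc3 (14.3 RPKM), although the ranges of Bbc3 and both its neighbours overlapped, so its place among them is not set, and Bbc3 was again the second with 10HDA (26.3 RPKM).

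How the members vary between cultures was a separate measure. It was not independent of their choice, since the spread between cultures enters the comparison of treatments. In a model with treatment and culture, 1045 genes (9.93% of those tested) differed between cultures 1, 3 and 4 at an adjusted p under 0.1 in edgeR, and 0 of the 8 members did; 1 of the 8, Bax, had an unadjusted p under 0.05, against 21.9% of all genes. For Bax the adjusted p in edgeR was 0.101, and its level was highest in culture 1 under both treatments. It fell below 0.1 under each of 3 other scalings of the libraries. Bbc3 had an adjusted p of 0.343 in this edgeR test. Among the other p53 targets, Btg2 (adjusted p = 0.0295), Ddit4 (adjusted p = 0.000901) and Triap1 (adjusted p = 0.0755) differed between cultures in the edgeR test.

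The other p53 targets were read from a list of 44 genes. It and the lists below were chosen with earlier results of these data known, so their counts are a description. All 44 genes were in the table and 25 were tested. Their median log2 fold change was 0.14 (range -0.22 to 0.80), 21 of 25 lay above 0, and the 10HDA libraries all lay above the vehicle libraries for 6 of them (5.84% of all genes). Among these 6, Psrc1 passed the limit of 10 CPM, applied before TMM scaling, through its 10HDA libraries alone. After scaling it was at 7.82 to 8.88 CPM with vehicle and 9.95 to 10.3 CPM with 10HDA. In edgeR without a culture term 1 of the 25 rose and 0 fell (0.2% and 0.428% of all genes). It was Sesn2, a sestrin that restrains mTORC1, at 61.7, 51.8 and 53.4 CPM with vehicle and 106, 80.1 and 104 CPM with 10HDA (log2 fold change 0.80, SE 0.13, adjusted p = 0.0428). Its treatments did not overlap. Sesn2 is also on the list of ATF4 and CHOP stress genes, as is Ddit4. The call of Sesn2 was lost without the vehicle library of culture 3 or 4, without the 10HDA library of culture 1, and without both libraries of culture 1, 3 or 4, and without the 10HDA library of culture 4 edgeR called 4 of 24, with Btg2, Ddit4 and Triap1 beside it (1.75% of all genes rose there). With culture as a block 5 of the 25 rose, where 3.91% of all genes did, namely Sesn2, the antiproliferative gene Btg2 (log2 fold change 0.66), the mTORC1 inhibitor Ddit4 (0.63), the apoptosis inhibitor Triap1 (0.51) and Pidd1 (0.43), the scaffold of the PIDDosome. Without culture 1 and with the block 5 of 24 rose (3.52% of all genes), with Aen in place of Triap1.

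Several textbook targets of p53 on that list lay near 0. Zmat3 was counted at 98.5, 106 and 97.5 CPM with vehicle and at 98.4, 102 and 102 CPM with 10HDA, Plk2 at 158, 159 and 157 CPM and at 159, 148 and 169 CPM, and Ppm1d, the phosphatase Wip1, at 25.3, 23.6 and 22.7 CPM and at 24.5, 22.2 and 26.6 CPM. The treatments overlapped for all 3, with log2 fold changes of 0.0049, 0.0051 and 0.032. These 3 genes were singled out after their values were seen. Fas and Gdf15 stayed under 1 CPM in every library and were not tested. Regulators of p53 gave a median of -0.098 over 15 tested genes of 21, and edgeR without a culture term called 0 (0 at an unadjusted p under 0.05, and 0 with DESeq2 and limma-voom). With the block, Hipk2, a kinase that phosphorylates p53, fell (log2 fold change -0.44, adjusted p = 0.069 in edgeR, where 5.08% of all genes fell). Its treatments overlapped, with 22.2 CPM in the vehicle library of culture 1 against 53.7 and 61.7 CPM in the other vehicle libraries. The call was absent with the block and the 1 CPM limit.

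The partners of Puma moved less than Bbc3. Of the other BCL2 family genes 10 were tested, with a median log2 fold change of 0.13. edgeR without a culture term called 0 (2 at an unadjusted p under 0.05, against 10.1% of all genes), as did DESeq2 and limma-voom. With the block 2 rose, where 3.91% of all genes did. They were Hrk, a BH3-only gene of neurons (99.4, 110 and 88.4 CPM with vehicle and 124, 129 and 122 CPM with 10HDA, log2 fold change 0.34), and Bok, a relative of Bax (log2 fold change 0.46). Neither gene overlapped between treatments, and all 10HDA libraries lay above all vehicle libraries for 5.84% of all genes. Per length, the antiapoptotic genes Mcl1 (32.8 ± 2.15 RPKM) and Bcl2l1 (23.5 ± 1.52 RPKM) stood above Bbc3 (15.1 ± 2.02 RPKM) in the vehicle libraries. With 10HDA, Bbc3 (27.8 ± 2.96 RPKM) stood above Bcl2l1 (22.2 ± 2.03 RPKM) and below Mcl1 (35.7 ± 2.44 RPKM), and the ranges of these neighbours did not overlap. These levels rest on the deposited gene lengths alone, and whether the order holds with other lengths was not tested. Further down the route, the apoptosome and caspase genes gave a median of 0.067 over 8 tested genes. Of these, 0 were called by edgeR with or without the block, and 0 by DESeq2 and limma-voom. Without the block 1 had an unadjusted p under 0.05 in edgeR, against 10.1% of all genes.

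**Figure D3:**
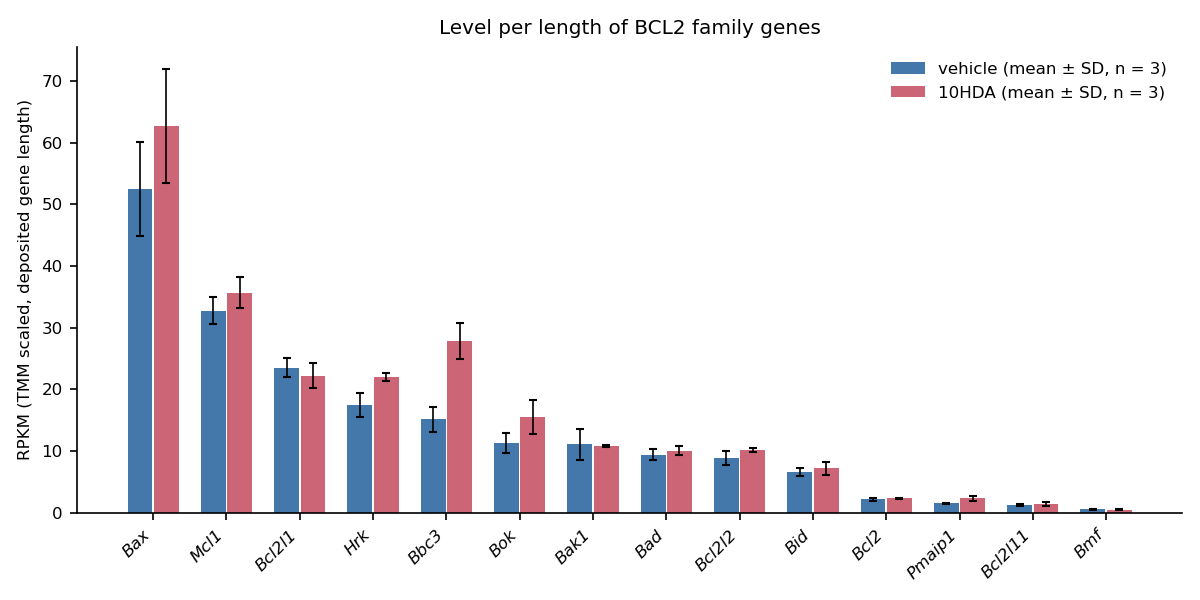
Level per length (RPKM, vertical axis from 0, mean ± SD, n = 3) of 14 BCL2 family genes in vehicle (blue) and 10HDA (red) libraries; Bik, Bcl2a1a and Bcl2a1b, at or near 0, are not drawn. Bbc3 goes from the fifth place with vehicle (15.1) to the third with 10HDA (27.8), above Bcl2l1 (22.2), and its vehicle range overlaps that of Hrk. The order rests on the deposited gene lengths alone.

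Of the cell cycle genes that p53 is known to lower through p21 and the DREAM complex, none passed the test in either direction. Of 18 listed genes 10 were tested, with a median log2 fold change of 0.053. edgeR without a culture term called 0 (0 at an unadjusted p under 0.05), as did edgeR with the block, DESeq2 and limma-voom. Top2a was counted at 63.7, 75.5 and 60.7 CPM with vehicle and at 63.4, 76.7 and 78.4 CPM with 10HDA, and Mki67 at 73.0, 98.8 and 114 CPM and at 66.5, 73.2 and 112 CPM. The treatments overlapped for both, and Mki67 was lowest in culture 1 under both treatments. The FOXO factors and their targets, which include genes raised where FOXO is active, had a median of -0.055 over 9 tested genes, a value above 0 in 6 of 20 alternatives. Again 0 were called by edgeR with or without the block, by DESeq2 or by limma-voom, and 0 had an unadjusted p under 0.05 in edgeR without a culture term. Foxo3 itself was at 59.6, 70.5 and 60.0 CPM with vehicle and at 64.3, 67.5 and 66.3 CPM with 10HDA. The 3 genes of the list with the smallest p were Foxo1, Ccng2 and Bcl6. Foxo1 lay lower with 10HDA (log2 fold change -0.23) and Bcl6 higher (0.17), both without overlap between treatments. Ccng2 (0.19) overlapped.

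Of 13 tested genes of the ATF4 and CHOP stress response 5 rose, by log2 fold changes of 0.67 to 1.50 (0.88 for Bbc3). ATF4 is the factor that is translated when eIF2alpha is phosphorylated, and it raises genes of amino acid supply and, with CHOP, of cell death. The list held 16 genes. It was chosen with earlier results of these data known, so its counts are a description and nothing is read from them. The median over the 13 tested was 0.40 on the log2 scale, and 12 of them lay above 0. The 5 rose in edgeR without a culture term, where 0 fell (0.2% and 0.428% of all genes). Trib3, a pseudokinase, was at 4.66, 3.71 and 3.25 CPM with vehicle and at 12.4, 10.2 and 10.1 CPM with 10HDA (log2 fold change 1.50, SE 0.18, adjusted p = 0.0149). It reached the limit of 10 CPM in the 10HDA libraries alone, so it entered the test through the treatment in which it was high, and it also passed with the limit of 1 CPM, which the libraries of both treatments reached. Chac1, which degrades glutathione, was at 29.1, 23.6 and 25.9 CPM and at 51.0, 42.5 and 52.9 CPM (log2 fold change 0.90, SE 0.13, adjusted p = 0.0272). Ddit3, the gene of CHOP, was at 20.3, 20.1 and 20.3 CPM and at 35.1, 28.9 and 32.8 CPM (log2 fold change 0.67, SE 0.12, adjusted p = 0.0497). The treatments did not overlap for these 3, nor for Atf5 (log2 fold change 0.68, adjusted p = 0.0497) and Sesn2, the remaining 2 that rose.

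Not every gene of the ATF4 list went that way. Atf4 itself was at 358, 292 and 305 CPM with vehicle and at 382, 301 and 361 CPM with 10HDA, with overlapping treatments and a log2 fold change of 0.13. Slc7a11, the cystine transporter, had a log2 fold change of -0.79 and fell in edgeR with the block, where 9 of the 13 genes rose (5.08% of all genes fell there and 3.91% rose). The calls rested on few libraries, and their number changed with the libraries kept. Without the vehicle library of culture 3, edgeR called 0 of 13 (9 at an unadjusted p under 0.05, against 13% of all genes). Dropping the vehicle library of culture 4 left 2 of 13, where 0.0382% of all genes rose. Without the 10HDA library of culture 1 it called 0 of 12 (8 at an unadjusted p under 0.05, against 4.36% of all genes). Dropping the 10HDA library of culture 3 left 3 of 12, where 0.0867% of all genes rose. On leaving out the vehicle library of culture 1, 7 of 13 rose (0.288% of all genes). When the 10HDA library of culture 4 was left out, 5 of 12 rose and Slc7a11 fell (1.75% and 1.66% of all genes). Leaving out culture 1, 3 or 4 as a whole gave 0, 0 and 2 of 12 (10, 8 and 8 at an unadjusted p under 0.05, against 6.5%, 6.73% and 10.5% of all genes). With the block and without culture 1, 10 of 12 rose and Slc7a11 fell, where 3.52% of all genes rose and 4.97% fell.

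**Figure D4:**
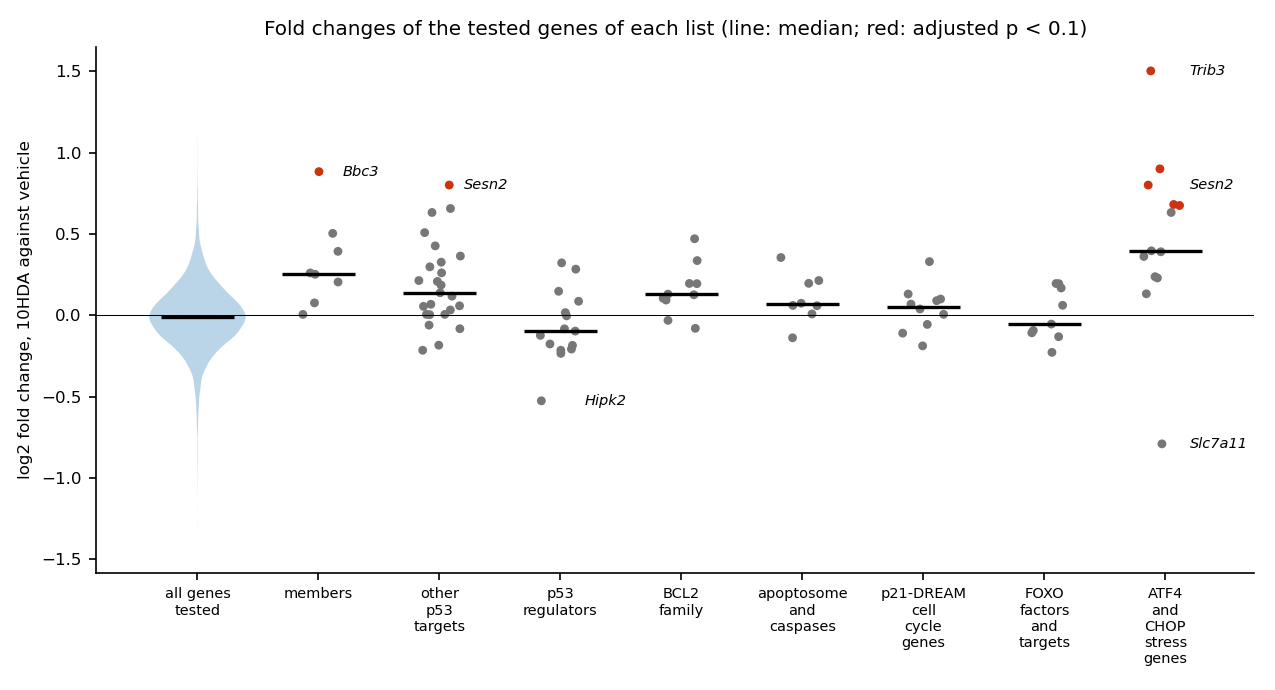
log2 fold change, 10HDA against vehicle (vertical axis), of the tested genes of each list (points, with a black line at the median and red for an adjusted p under 0.1 without a culture term) beside the spread over all 10520 genes tested (blue shape). The medians run from -0.098 for p53 regulators to 0.40 for ATF4 and CHOP stress genes, with the members at 0.26 and all genes at -0.0095.

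Over the 6 libraries, the genes whose log2 CPM followed that of Bbc3 most closely among the 10520 genes tested were Ntpcr, a nucleotide hydrolase (Pearson r 0.998), Pycr1, which makes proline (0.996), Zfp367, a zinc finger gene (0.989), Trib3 (0.988) and Mthfd2, an enzyme of mitochondrial folate metabolism (0.986). For the members the value was 0.907 for Ccng1, 0.863 for Trp53inp1, 0.806 for Cdkn1a, 0.765 for Trp53, 0.744 for Bax, 0.642 for Sesn1 and 0.016 for Mdm2. The values are a description over 6 libraries that share their treatment and, in pairs, their culture. Ntpcr (6.82 to 8.16 CPM with vehicle and 10.7 to 11.7 CPM with 10HDA) and Trib3 were among the genes tested only because their 10HDA libraries passed 10 CPM, so the choice of genes was not independent of the treatment. Pycr1 was at 30.4, 28.4 and 24.3 CPM with vehicle and at 48.3, 39.2 and 42.7 CPM with 10HDA, with the lowest vehicle library in culture 4 and the highest 10HDA library in culture 1, as for Bbc3. Pycr1 was picked by its correlation with Bbc3, so this likeness follows from the choice.

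Markers of several cell types moved with the treatment as well. Of 7 tested astrocyte genes all lay lower with 10HDA and 3 fell in edgeR without a culture term, where 0.428% of all genes did (Aldoc, Aldh1l1 and Gfap, the last at 82.8, 63.9 and 101 CPM with vehicle and 23.6, 37.6 and 40.9 CPM with 10HDA), and the summed level of the 8 listed genes was 1115 to 1384 CPM with vehicle and 835 to 1056 CPM with 10HDA. With the block 4 of the 7 fell, with Aqp4 added (5.08% of all genes). The 3 calls without a culture term were all lost without the vehicle library of culture 3, without the 10HDA library of culture 1, and without either pair of culture 1 or 3. The 8 neuron genes summed to 4845 to 5198 CPM with vehicle and 3913 to 4506 CPM with 10HDA. Of these 8, edgeR called 0 without a culture term (3 at an unadjusted p under 0.05, against 10.1% of all genes). DESeq2 called 1 lower (1.06% of all genes fell there) and limma-voom called 0. With the block 3 fell, where 5.08% of all genes did. The oligodendrocyte lineage genes summed to 329 to 409 CPM and 248 to 354 CPM. Among 6 tested, Cspg4 was called lower without a culture term (0.428% of all genes). With the block Pdgfra (log2 fold change -1.26), Cspg4 and Sox10 were called lower (5.08% of all genes). Sox10 reached 10 CPM in the vehicle libraries alone. The progenitor genes summed to 316 to 333 CPM and 346 to 368 CPM. Of 4 tested, 0 were called by edgeR without a culture term (1 at an unadjusted p under 0.05, against 10.1% of all genes), and 0 by DESeq2 and limma-voom. Of these 4, Vim was called higher with the block (log2 fold change 0.32, where 3.91% of all genes rose). It was also called higher without a culture term on leaving out the vehicle library of culture 1 (0.288% of all genes). The endothelial and mural genes summed to 17.0 to 18.7 CPM and 7.72 to 10.6 CPM, with Pdgfrb, the 1 tested gene, called lower. It was tested only because its vehicle libraries passed 10 CPM (14.9 to 15.8 CPM, against 6.04 to 9.43 CPM with 10HDA), and it was also called lower with the limit of 1 CPM. The call of Cspg4 was lost without either of the vehicle libraries of cultures 3 and 4, without the 10HDA library of culture 1 and without any whole culture, and that of Pdgfrb without the 10HDA library of culture 1. Pdgfrb was not tested without any 1 of the vehicle libraries or without any whole culture. Fibroblast genes (9.74 to 11.9 and 6.19 to 6.35 CPM) and microglial genes (0.915 to 1.08 and 0.648 to 0.988 CPM, with Tmem119 at 0 in every library) were not tested. The part of these shifts in the levels of Bbc3 and the other p53 genes was not tested.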

How the data were processed

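The 6 RNA-seq libraries (3 vehicle, 3 10HDA) were read from the table of raw counts per gene deposited by the authors, who aligned untrimmed single-end reads to mm10 with Subjunc (Subread 1.4.4), counted them with featureCounts on Gencode gene models and used edgeR 3.4.2 in R 3.0.2. The deposited counts are neither normalized nor filtered. The strand setting is not given in the sources used here. The table had 0 further sample columns. Symbols and coordinates come from GENCODE M21 (98% of identifiers matched), lengths from the deposited table.

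Counts were scaled by TMM and tested with edgeR 4.0.16 in R 4.3.3 (at least 10 CPM in 3 libraries, Benjamini-Hochberg adjusted p under 0.1). The scaling, limit and threshold follow the study's methods, which name edgeR but not which of its tests; the quasi-likelihood test was used here. Correlations used log2 CPM with a prior count of 2, and differences within cultures used log2 ratios of CPM without a prior count. The members and lists were chosen with earlier results of these data known. Named by rule were all members, of each list the genes past the threshold with or without culture as a block (at most 6, or the 3 with the smallest p), and the 5 genes most correlated with Bbc3. Further genes were named outside this rule, among them Psrc1, Aen, Fas, Gdf15, Foxo3, Atf4, Mcl1 and Bcl2l1. So were Zmat3, Plk2 and Ppm1d, which were picked after their values were seen. The labels place 1 library of each treatment in each culture, so the numbers pair the libraries; deviations from treatment means correlated at 0.368, 0.235 and 0.616 within cultures and at -0.449 to 0.183 between cultures. Alternatives were other scalings, filters and thresholds, DESeq2 1.42.0, limma-voom (limma 3.58.1), the culture block, and each library or culture left out. On simulated data of 10520 genes for 10HDA against vehicle, 200 of 200 genes with a log2 change of 1 were recovered, with 19 false calls. The simulation gave all genes the same spread and had no difference between cultures. Its change was larger than that of any member, so it does not show how well smaller changes are found.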

Additional observations from a re-analysis of the deposited data

How the results depend on the processing

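No fold change of a member that passed the threshold turned in sign. The count of members past the threshold was 1 of 8, where 0.2% of all genes rose. It became 4 of 10 with no filter on low counts (1.09% of all genes rose) and 3 of 8 with DESeq2 (0.551%). With culture as a block it was 3 of 8 (3.91%), and with the block and the 1 CPM limit 5 of 10 (3.92%). It was 4 of 8 with the block and without both libraries of culture 1 (3.52%, an alternative chosen after seeing the data). Leaving out a library or a whole culture gave 0 to 2 of 8, where 0 to 1.75% of all genes rose. The count of other p53 targets past the threshold, 1 of 25, became 4 of 44, 2 of 25, 5 of 25, 5 of 39 and 5 of 24 under the same 5 settings. It was 0 to 4 on leaving out a library or culture. All genes past the threshold numbered 66 of 10520. Under those settings they numbered 636 of 26859, 170 and 945 of 10520, 1148 of 15311 and 869 of 10234. There were 43 at a threshold of 0.05, and 0 to 355 with libraries or cultures left out (0 without the 10HDA library of culture 1, where 453 had an unadjusted p under 0.05, 355 without that of culture 4). Genes differing between cultures fell from 1045 to 604 at a threshold of 0.05. The cause of these shifts was not tested, apart from the stricter threshold. Scaling by library totals alone moved the median log2 fold change of all genes by 0.076, and the other scalings by less. Pairing by culture changed the calls given with the results and no other call of a member. A group left with 1 or 2 libraries is assumed to vary like the rest, and Pmaip1, with 47 to 84 counts per library, is limited by depth.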
